A study of Mus musculus with 8 samples.

Results

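The LPS response of RAW264.7 cells, a mouse macrophage-like line, was compared between cells with a knockdown of the endocytic adaptor Dab2 and control cells, gene by gene. The quantity reported is the difference in LPS response, which is the log2 change with LPS in shDab2 cells minus the log2 change with LPS in shLuc cells. The 4 groups were shDab2 cells given LPS, shDab2 cells given PBS, shLuc cells given LPS and shLuc cells given PBS, and RNA of each group was hybridized to 2 one-colour arrays. LPS was given at 100 ng/ml for 6 h, and PBS was the vehicle over the same time. The shDab2 line stably carried 1 lentiviral shRNA sequence against Dab2 and the shLuc line an shRNA against luciferase, a gene that mouse cells lack. Both lines had been selected with puromycin, so each knockdown value comes from 1 selected population and 1 shRNA sequence. Every annotated probe entered the comparison. These were 21876 of 26423 probes, and they represented 19084 genes, each by its brightest probe.

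LPS is sensed by TLR4 with its partners MD-2 and CD14. At the cell surface the adaptor MyD88 passes the signal to NF-kB and AP-1, which drive inflammatory cytokines, and after endocytosis of the receptor the adaptor TRIF passes it to IRF3, which drives interferon beta and the genes that interferon in turn induces. Dab2 binds clathrin and receptor cargo during endocytosis. Since the LPS change of one line is set against that of the other, a gene can be called through its level with PBS, its level with LPS or both.

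Values are intensities after quantile normalization between arrays, and log2 values were taken after 50 was added. This makes the log2 change of a dim gene smaller than its ratio of intensities. If a group had both its arrays under 50, the ratio is a bound against 50. Adjusted p-values come from limma fitted to all 8 arrays, with Benjamini-Hochberg adjustment over all probes, and SE is the standard error of the fit. The sources used here do not say whether the arrays of a group came from separate cultures, and a p-value here reflects no more than array-to-array spread, which may be technical. In bulk RNA, fewer responding cells and less RNA per cell cannot be told apart. Replicate arrays correlated with r from 0.9949 to 0.9963 across probes. Dab2 itself (chromosome 15 from 6299788 to 6440715 of GRCm38) was read by 1 dim probe, with intensities of 39.1 and 34.8 with LPS and 59.1 and 76 with PBS in shDab2 cells, against 52.3 and 72.4 with LPS and 91.1 and 88.1 with PBS in shLuc cells. Each shDab2 array lay below both shLuc arrays of the same treatment, but the line difference did not pass the test (-0.36 with LPS and -0.25 with PBS on the log2 scale), so this probe gives no check of the knockdown. The study itself reported, by Western blot, much less Dab2 protein in this shDab2 line than in shLuc cells. The difference in LPS response of Dab2 was -0.11, SE 0.17, adjusted p = 0.822.

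Most of the genes whose LPS response differed responded in the same direction in both lines and more strongly in shDab2 cells. Of 19084 genes, 517 (2.71%) had a difference above 0 and 587 (3.08%) a difference below 0 at an adjusted p under 0.05, and 4193 probes had an unadjusted p under 0.05. Every count of a gene list below is to be read beside these shares. They include 8756 genes under 50 in all groups, of which 20 were called. Of the 8947 genes with no group under 50, 974 were called. The share of the called genes that lay above 0 was 46.8%, but 55% when the 75th percentile was set equal on all arrays and 17.9% when they were left unnormalized, so the balance of directions rests on the normalization. Among calls of more than 1 on the log2 scale, 104 genes were above 0 and 22 below 0. The largest differences above 0 were in Il6, Serpinb2, Lcn2, Gbp2b and Ifnb1, and the largest below 0 in Csnk1a1, Scel and Kbtbd11. For all 1104 called genes, every response that the arrays of one line allow lay on one side of every response that the arrays of the other allow, as was so for 6009 of all 19084 genes.

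By the direction and the test of each line's own response, 649 of the called genes were enlarged in shDab2 cells, which means that the response passed the test in both lines in the same direction and was larger in shDab2 cells. Of these, 329 were rises and 320 falls. A response was gained, passing the test in shDab2 cells alone, for 257 genes (120 rises and 137 falls). It was blunted, smaller in shDab2 cells than in shLuc cells but in the same direction, for 55 genes, of which 42 were rises. It was lost, passing in shLuc cells alone, for 95 genes, of which 60 were rises, and reversed for 47. The remaining gene passed in neither line. Gained and lost describe the side of a threshold that each response fell on and not a response of 0. As a background, the LPS response passed the test for 6007 genes (31.5%) in shDab2 cells and 5197 genes (27.2%) in shLuc cells.

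**Figure D1:**
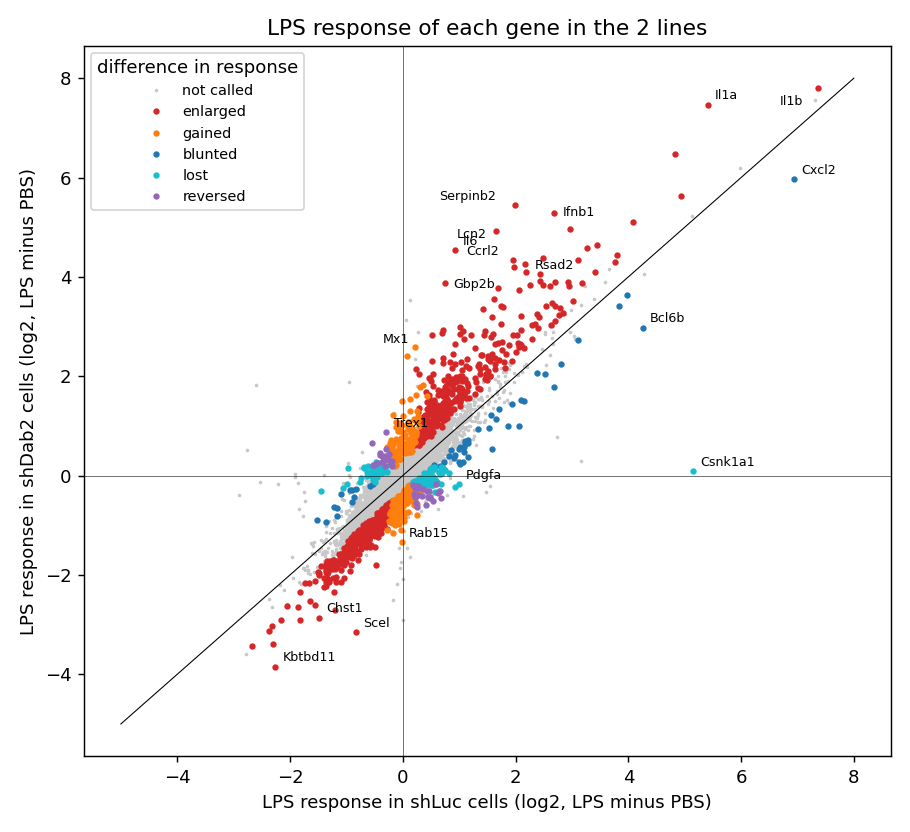
LPS response of each of 19084 genes, as the log2 change with LPS in shDab2 cells (vertical axis) against that in shLuc cells (horizontal axis), with genes whose difference was called coloured by class and the line of equal response drawn. The 329 enlarged rises lie above the line at the upper right and the 320 enlarged falls below it at the lower left, while Csnk1a1, Bcl6b and Cxcl2 lie under the line among the rises.

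The widening held for strong responses in both directions, as read in genes whose LPS response passed the test in both lines. Gained and lost responses, such as those of Mx1 and Csnk1a1, are therefore not counted here. Among genes passing in both lines, 426 had a mean response over the lines that was a rise of more than 1. Of these 426, 350 had the larger rise in shDab2 cells, 224 of them by the test of the difference. The rise was smaller by that test for 20. The median rise of the 426 was 1.78 in shDab2 cells and 1.29 in shLuc cells. Of 324 genes that passed in both lines with a mean fall of more than 1, 297 had the larger fall in shDab2 cells. The difference passed the test for 133 of them, and 2 of the 324 had a fall that was smaller by the test. The median of the difference over all 19084 genes was -0.006.

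The 7 genes that the study ties to TRIF, of which Il6 and Il1a are tied to MyD88 as well, all had an enlarged rise, with a median difference of 2.06 against -0.006 over all genes, but the study chose these genes on these same arrays, so the list is not independent evidence of its direction. Il6 (chromosome 5 from 30013114 to 30019975), an inflammatory cytokine, had intensities of 1148 and 1307 with LPS and 2.5 and 7.75 with PBS in shDab2 cells, against 49.8 and 48.6 with LPS and 3.38 and 1 with PBS in shLuc cells. Only the shDab2 arrays with LPS were bright, and Il6 was at least 24.5-fold higher with LPS than with PBS in shDab2 cells, whereas all shLuc arrays lay under 50. The difference was the largest above 0 among called genes (3.61, SE 0.14, adjusted p = 2.52e-07). Its size and rank depend on the added constant, since it was 4.04 with 16 added and 2.90 with the larger constant tried, where that of Serpinb2 was 3.10.

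Ifnb1 (chromosome 4 from 88522025 to 88522794), which encodes interferon beta, had intensities of 2499 and 2432 with LPS and 12 and 16.3 with PBS in shDab2 cells, against 541 and 520.1 with LPS and 43.5 and 37.9 with PBS in shLuc cells. It was bright with LPS in both lines, at least 49.3-fold higher in shDab2 cells and at least 10.6-fold higher in shLuc cells than with PBS, and without overlap between any groups (2.62, SE 0.10, adjusted p = 2.52e-07). Il1a, the alarmin interleukin 1 alpha, reached 11846 and 11447 in shDab2 cells with LPS and 2374 and 2576 in shLuc cells with LPS, while all arrays with PBS lay under 20, and its response was 7.47 in shDab2 cells and 5.41 in shLuc cells (2.06, SE 0.10, adjusted p = 7.86e-07). Cxcl10, a T cell chemokine induced by interferon, had intensities of 6893 and 8064 with LPS and 481 and 467 with PBS in shDab2 cells, against 1856 and 1745 with LPS and 269.6 and 293 with PBS in shLuc cells. It was higher in shDab2 cells under both treatments, and the gap widened with LPS (1.36, SE 0.11, adjusted p = 4.05e-05). Ccl5 (RANTES) started lower in shDab2 cells with PBS and ended higher with LPS, at 793 and 719 with LPS and 73 and 66.9 with PBS in shDab2 cells, against 301 and 275 with LPS and 100.3 and 119 with PBS in shLuc cells (1.67, SE 0.12, adjusted p = 2.33e-05). Ifit1 and Ifit2, interferon-induced proteins that bind foreign RNA, had differences of 2.09 (adjusted p = 1.1e-06) and 1.84 (adjusted p = 7.09e-07).

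Genes that the study assigns to the MyD88 branch behaved unevenly. Of 9, 4 had an enlarged rise, 1 a blunted rise and 4 a difference that did not pass the test, with a median of 0.24, and this list too was drawn from these arrays. The median was 0.02 with 16 added and 0.55 with the larger constant, where 5 had a difference above 0. Pilra, an inhibitory receptor of myeloid cells, had intensities of 236 and 221 with LPS and 18.3 and 15.9 with PBS in shDab2 cells, against 51 and 48.6 with LPS and 21.1 and 15.9 with PBS in shLuc cells and the largest difference (1.51, SE 0.14, adjusted p = 0.000103). Its shDab2 arrays with LPS stood above all others, and its shLuc arrays rose less. Tnf had intensities of 5199 and 5046 with LPS and 224 and 284 with PBS in shDab2 cells, against 3979.9 and 4019 with LPS and 328 and 335 with PBS in shLuc cells. It was lower in shDab2 cells with PBS and higher with LPS, so the lines crossed, and its response was larger by 0.69, SE 0.11, adjusted p = 0.00573. By RT-qPCR and ELISA, the study reported that Tnf RNA and secreted TNF-alpha did not differ significantly between the lines after LPS. Those tests compared levels with LPS and not the change from PBS. Socs3, a feedback inhibitor of cytokine receptors, and Pde4b, a phosphodiesterase, each had a difference of 0.69 (adjusted p = 0.00291 and 0.002).

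For Il1b and Ptgs2 the lines differed under both treatments by about the same amount, and the difference in response did not pass. Il1b, the pro-form of interleukin 1 beta, had intensities of 36890.0 and 38232 with LPS and 151 and 147 with PBS in shDab2 cells, against 17391 and 16857 with LPS and 60.3 and 55.1 with PBS in shLuc cells. Both shDab2 groups lay above their shLuc counterparts, by 1.13 with LPS and 0.89 with PBS on the log2 scale, and the difference in response was 0.24, SE 0.08, adjusted p = 0.117. With the larger constant it passed (0.55, adjusted p = 0.00128), and with 16 added it was -0.03. Ptgs2, the inducible cyclooxygenase, had a line difference of 0.82 with LPS and 0.73 with PBS and a difference in response of 0.09, SE 0.10, adjusted p = 0.726. Ccl3 arrays with LPS reached the top of the scale in both lines (54201 and 65469 in shDab2 cells and 65469 and 41384 in shLuc cells), so a difference in response could not be read for it, and it is counted among those that did not pass. Adssl1, a purine synthesis enzyme, fell with LPS in both lines (-1.41 in shDab2 cells and -0.97 in shLuc cells), with a difference of -0.44, SE 0.13, adjusted p = 0.11. Cxcl2 went the other way from Tnf. This neutrophil chemokine had intensities of 38232 and 43023 with LPS and 593 and 603 with PBS in shDab2 cells, against 32851 and 33857 with LPS and 225 and 220.4 with PBS in shLuc cells, so that its levels with LPS lay within a narrow range while shDab2 cells started higher with PBS, and its rise was smaller by 0.97 on the log2 scale (-0.97, SE 0.09, adjusted p = 0.000103).

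**Figure D2:**
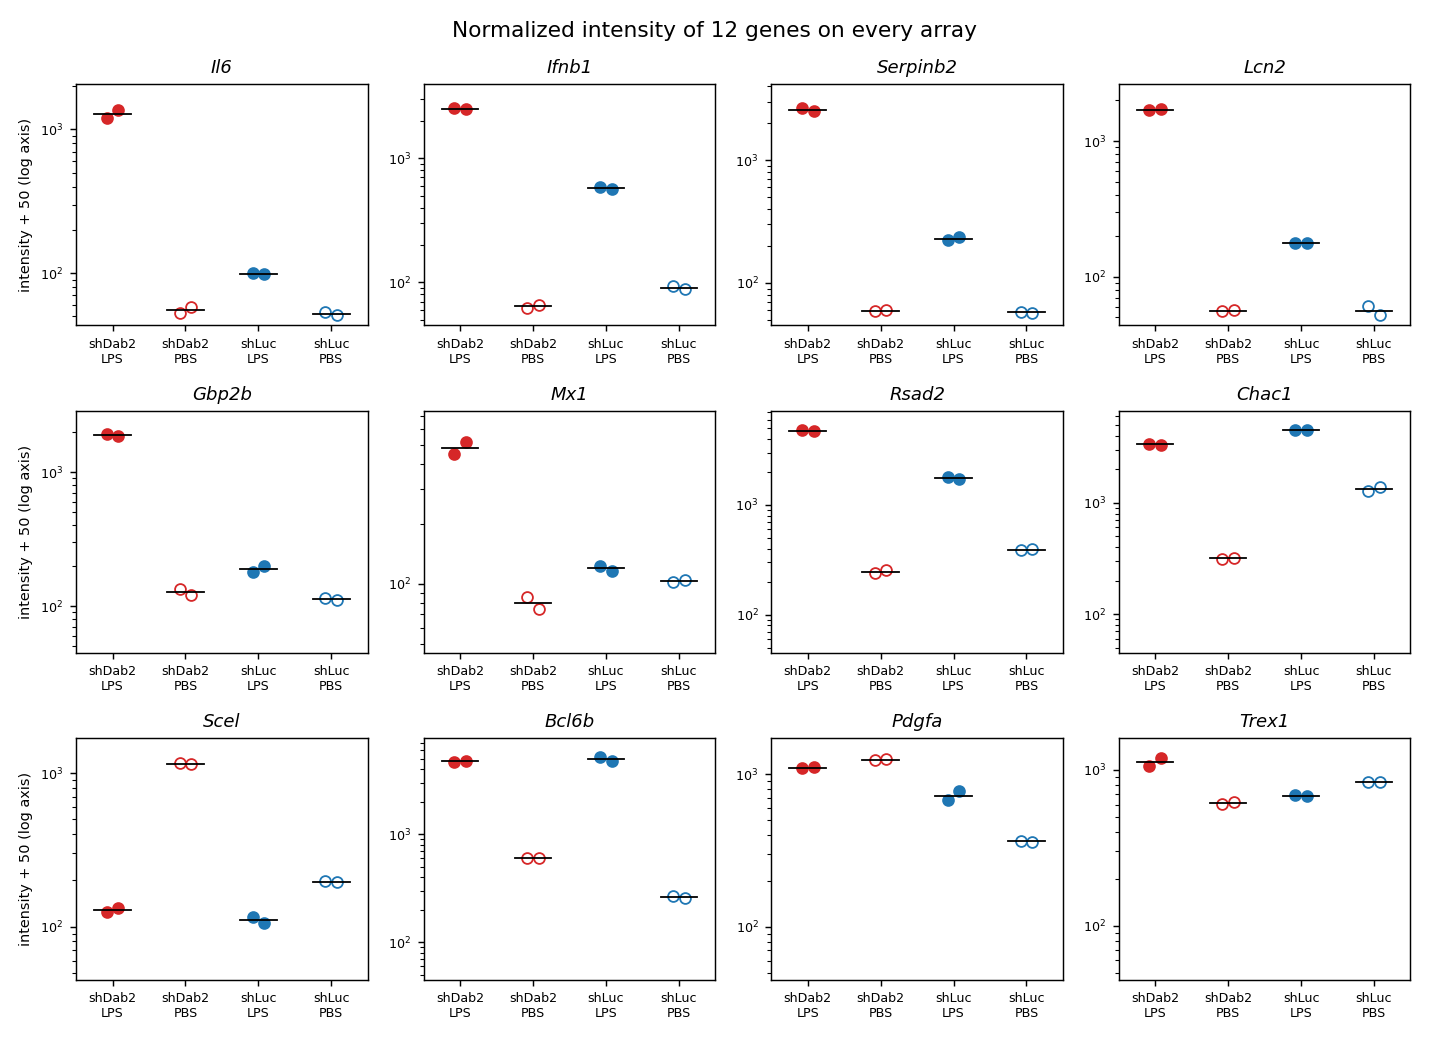
Normalized intensity plus 50 (log axis) of 12 genes on each of the 8 arrays, with filled points for LPS, open points for PBS, red for shDab2 cells, blue for shLuc cells and a bar at the geometric mean of the 2 arrays. Il6, Serpinb2, Lcn2 and Gbp2b stand out in shDab2 cells with LPS alone, whereas Scel stands out in shDab2 cells with PBS, and Bcl6b reaches like levels with LPS in both lines.

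Interferon-stimulated genes had larger rises in shDab2 cells almost throughout. Of 41 measured, 36 had a difference above 0 by the test, 31 as enlarged and 5 as gained rises, none had one below 0, and the median was 0.93. Mx1, an antiviral GTPase, had intensities of 399 and 467 with LPS and 35.9 and 24.7 with PBS in shDab2 cells, against 73.3 and 65.8 with LPS and 51.5 and 54.3 with PBS in shLuc cells. Its response passed the test in shDab2 cells alone, at least 8.63-fold higher with LPS, and the shLuc arrays stayed near their level with PBS (2.37, SE 0.15, adjusted p = 9.21e-06). Isg20, an exonuclease that degrades viral RNA, had intensities of 877 and 867 with LPS and 74.1 and 77 with PBS in shDab2 cells, against 312 and 331 with LPS and 184 and 172 with PBS in shLuc cells. It was the lowest in shDab2 cells with PBS and the highest in shDab2 cells with LPS (2.17, SE 0.10, adjusted p = 7.09e-07). Rsad2, which encodes the antiviral protein viperin, showed the same crossing, at 4736 and 4641 with LPS and 189.6 and 203 with PBS in shDab2 cells, against 1743 and 1691 with LPS and 341 and 343 with PBS in shLuc cells (2.09, SE 0.08, adjusted p = 2.4e-07). With LPS, 34 of the 41 genes were higher in shDab2 than in shLuc cells by the test and none lower, and with PBS none were higher and 18 lower, which compares with 3953 of all genes (20.7%) that differed between the lines with LPS and 2299 (12%) with PBS. The difference in response did not pass for 5 genes, among them Oas1g (-0.11) and Slfn1 (0.14).

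Interferon-inducible GTPases, which coat and disrupt vacuoles that hold microbes, had a median of 1.17, the highest among the lists that the study did not choose. Of 10 measured, 9 had a difference above 0, and Iigp1 did not pass (0.48, adjusted p = 0.0951). Gbp2b had intensities of 1861 and 1803 with LPS and 84.9 and 70.4 with PBS in shDab2 cells, against 131 and 148 with LPS and 65 and 61.3 with PBS in shLuc cells. The shDab2 arrays with LPS stood far above every other array (3.14, SE 0.12, adjusted p = 2.4e-07). Gbp2 (726 and 695 with LPS and 55.8 and 57 with PBS in shDab2 cells, against 66.3 and 65.8 with LPS and 39.4 and 23.8 with PBS in shLuc cells; 2.32, SE 0.14, adjusted p = 7.7e-06) followed the same pattern. Gbp3, with 1589 and 1687 in shDab2 cells with LPS and 406 and 336 in shLuc cells with LPS, started from like levels with PBS (184 and 182 in shDab2 cells and 165 and 152 in shLuc cells), and its difference was 1.85, SE 0.12, adjusted p = 9.83e-06. Gbp7 responded by the test in shDab2 cells alone (1.46, adjusted p = 0.00065).

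The stretches of promoter shown here carry the interferon response element of genes with large differences. RefSeq promoters (GRCm38.p6, 250 bases before to 50 after each gene's start) were held for 14952 of the 19084 genes and were searched on both strands for GAAANNGAAA. The letters were found in 3.65% of all promoters, in 12.5% of those of genes with a difference above 0, in 25% where that difference exceeded 1, and in 1.48% of those of genes with a difference below 0. The promoters of 8 of 9 GTPases and 12 of 30 interferon-stimulated genes held them. They were in 41 of 249 promoters of enlarged rises and in 0 of 29 of blunted rises. With 29 promoters, 0 cannot be told from the 3.65% over all promoters. A match is a description of letters and not evidence of binding, and the genes printed were chosen after their values were seen. Capitals mark the match, which lies on the opposite strand in all of them except Cxcl10 and Pilra.
Gbp2b: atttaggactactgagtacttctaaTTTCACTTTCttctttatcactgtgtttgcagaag
Gbp2: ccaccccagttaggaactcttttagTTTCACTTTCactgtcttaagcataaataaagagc
Gbp3: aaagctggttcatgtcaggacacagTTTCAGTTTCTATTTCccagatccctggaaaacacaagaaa
Ifit1: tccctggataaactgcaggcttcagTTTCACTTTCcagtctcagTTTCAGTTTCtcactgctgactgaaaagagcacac
Rsad2: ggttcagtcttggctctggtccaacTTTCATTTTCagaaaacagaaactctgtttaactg
Cxcl10: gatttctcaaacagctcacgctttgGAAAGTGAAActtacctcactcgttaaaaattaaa
Pilra: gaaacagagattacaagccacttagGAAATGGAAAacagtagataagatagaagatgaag
They lie at chr3:142594685-142594744 (Gbp2b, plus strand), chr3:142620579-142620638 (Gbp2, plus strand), chr3:142559974-142560039 (Gbp3, plus strand), chr19:34640760-34640838 (Ifit1, plus strand), chr12:26456538-26456597 (Rsad2, minus strand), chr5:92349068-92349127 (Cxcl10, minus strand) and chr5:137836422-137836481 (Pilra, minus strand). In Gbp3 the matches overlap. The match of Gbp2b, that of Gbp2 and the first match of Ifit1 read alike, and the Cxcl10 match is their reverse complement.

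Upstream of these genes, the parts of the interferon pathway itself differed less. Of 21 receptors, kinases, STATs, IRFs and inhibitors, 6 had a difference above 0 and 1 below 0, with a median of 0.26. Besides Ifnb1, Irf7, which amplifies interferon production, had intensities of 10296 and 10247 with LPS and 3319 and 3255 with PBS in shDab2 cells, against 7525 and 7157 with LPS and 5041 and 5524 with PBS in shLuc cells (1.16, SE 0.08, adjusted p = 2.17e-05). It too was lowest in shDab2 cells with PBS and highest in shDab2 cells with LPS. Stat2 and Jak2, which signal from the interferon and cytokine receptors, both had a difference of 0.93 (adjusted p = 0.00098 and 0.000388). The member below 0 was Ifngr1, a chain of the interferon gamma receptor (-0.62, adjusted p = 0.00715), named after its values were seen, and its level fell further with LPS in shDab2 cells. Irf3 did not pass (-0.27, adjusted p = 0.119).

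Of 12 measured genes of class I antigen presentation, 3 had a difference above 0 and none below 0 (median 0.34), the peptide transporter genes Tap1 (0.84, SE 0.09, adjusted p = 0.000392) and Tap2 (0.38, adjusted p = 0.0328) and the class I transactivator Nlrc5 (0.83, SE 0.10, adjusted p = 0.000928). Tap2 was called in 8 of 18 alternatives and lost its call when any array other than shLuc LPS array 1 was left out, and without that array 5 genes of the list passed. Psmb9, an immunoproteasome subunit, had the largest value of the list (2.52) but did not pass (adjusted p = 0.352). It read 1273 and 1273 in shDab2 cells with LPS against 783 and 4.38 in shLuc cells with LPS, so 1 shLuc array stood far from its replicate.

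Among 24 cytokine genes, 15 had a difference above 0 by the test and none below 0, with a median of 0.68. Besides Il6, Ifnb1 and Il1a, the largest was Tnfsf15, a TNF family ligand that costimulates T cells. Its intensities were 2759 and 2764 with LPS and 34.8 and 46 with PBS in shDab2 cells, against 457 and 504 with LPS and 14.6 and 21.1 with PBS in shLuc cells, with the arrays with PBS under 50 in both lines (1.99, SE 0.12, adjusted p = 7.66e-06). Il12b (-0.10), Il12a (0.01), Il10 (0.16) and Ebi3 (0.16) did not pass.

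Chemokines differed in both directions. Of 20 measured, 7 had a difference above 0, 2 below 0 and 11 did not pass, with a median of 0.16. Cxcl3, which attracts neutrophils, had intensities of 367 and 343 with LPS and 2.5 and 3.5 with PBS in shDab2 cells, against 18.3 and 52.3 with LPS and 2.38 and -1 with PBS in shLuc cells (2.21, SE 0.23, adjusted p = 0.000229). The shLuc arrays with LPS disagreed with each other, at 18.3 and 52.3, and both lay far below the shDab2 arrays with LPS. Ccl12 and Ccl22, which attract monocytes and T cells, had differences of 1.93 (adjusted p = 1.59e-05) and 1.78 (adjusted p = 6.48e-05), and in each the shDab2 arrays with LPS stood above all other arrays. The members below 0 were Cxcl2 and Ccl2, a monocyte chemokine named after its values were seen (-0.34, adjusted p = 0.0291), whose own rise was 3.63 in shDab2 cells and 3.97 in shLuc cells. Ccl2 was called in only 7 of 18 alternatives, with values of -0.44 to -0.16. Ccl4 (-0.09) did not pass.

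Of 19 direct targets and feedback regulators of NF-kB, 7 had a difference above 0 and none below 0, with a median of 0.39. Tnfaip2, a TNF-induced gene, had intensities of 1628 and 1749 with LPS and 78 and 66.3 with PBS in shDab2 cells, against 778 and 753 with LPS and 135 and 107 with PBS in shLuc cells, with the lines crossing between PBS and LPS (1.57, SE 0.13, adjusted p = 4.05e-05). Tnfaip3, the ubiquitin-editing inhibitor A20, had a difference of 0.87, SE 0.07, adjusted p = 6.47e-05, Zc3h12a, a nuclease that degrades cytokine mRNAs, one of 0.81, SE 0.11, adjusted p = 0.00143, and Nfkb2, the p100 subunit, one of 0.77, SE 0.08, adjusted p = 0.000309. Nfkbia, the classical inhibitor of NF-kB (0.30, adjusted p = 0.304), Nfkbiz (0.31) and Icam1 (-0.12) did not pass. Tnip1 had a value of 1.04 that did not pass (adjusted p = 0.445), and its shLuc arrays with LPS read 1079.9 and 4079.

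The kB motif, searched by its consensus on both strands, was found more widely than the interferon element, namely in 9.12% of all promoters, 15% of those of genes with a difference above 0, 9.28% of those of genes with a difference below 0, 8 of 29 promoters of blunted rises and 11 of 16 of the NF-kB list. Il6, Tnfaip2 and the atypical chemokine receptor gene Ccrl2 (larger rises) and Cxcl2 (a smaller rise) are shown with the match in capitals, so that genes of opposite behaviour can be read side by side.
Il6: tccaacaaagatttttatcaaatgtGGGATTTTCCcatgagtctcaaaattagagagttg
Tnfaip2: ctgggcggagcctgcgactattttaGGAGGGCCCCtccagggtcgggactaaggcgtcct
Ccrl2: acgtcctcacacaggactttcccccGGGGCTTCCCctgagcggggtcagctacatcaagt
Cxcl2: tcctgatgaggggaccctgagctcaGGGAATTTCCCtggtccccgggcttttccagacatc
They lie at chr5:30013045-30013104 (Il6, plus strand), chr12:111442612-111442671 (Tnfaip2, plus strand), chr9:111057540-111057599 (Ccrl2, minus strand) and chr5:90903777-90903837 (Cxcl2, plus strand), also of GRCm38.p6 in RefSeq, and were chosen after their values were seen.

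Most immediate early and AP-1 factors had a difference that did not pass the test. Of 18, 4 had a difference above 0 and 1 below 0, with a median of 0.15. Atf3, a stress-induced repressor of inflammatory genes, had intensities of 327 and 327 with LPS and 41.4 and 51.6 with PBS in shDab2 cells, against 94.5 and 86.1 with LPS and 52.5 and 49.1 with PBS in shLuc cells (1.49, SE 0.13, adjusted p = 7.45e-05). Junb (0.81, SE 0.16, adjusted p = 0.0154) and Ier2 (0.70, SE 0.09, adjusted p = 0.00098) had larger rises in shDab2 cells. Egr2 had intensities of 857 and 831 with LPS and 668 and 616 with PBS in shDab2 cells, against 403 and 427 with LPS and 164 and 153 with PBS in shLuc cells. It was already high in shDab2 cells with PBS, above both shLuc groups, and rose less from there (-0.79, SE 0.10, adjusted p = 0.000815). Fos (0.27), Jun (-0.24) and Egr1 (-0.29) did not pass. The AP-1 motif, TGACTCA or TGAGTCA, was searched in the same promoters. It was found in 5.44% of all promoters, 10.3% of those of genes with a difference above 0 and 5.27% of those below 0. Where the difference exceeded 1, 11 of 84 promoters of genes above 0 and 4 of 14 of genes below 0 held it.

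Of 24 components of the TLR4 receptor complex and its signaling, 5 had a difference above 0 and 1 below 0, with a median of 0.04, which was -0.09 with 5 above and 4 below 0 when arrays were not normalized. Tlr4 itself had intensities of 549.6 and 529 with LPS and 288 and 307 with PBS in shDab2 cells, against 322 and 336 with LPS and 273 and 288 with PBS in shLuc cells. The arrays with PBS lay close together in both lines, and with LPS the shDab2 arrays lay above the shLuc arrays (0.56, SE 0.10, adjusted p = 0.00617). Irak3, a kinase-dead inhibitor of MyD88 signaling, had the largest difference of the list, at 404 and 386 with LPS and 81.6 and 74.1 with PBS in shDab2 cells, against 148 and 156 with LPS and 91.1 and 89.1 with PBS in shLuc cells (1.27, SE 0.11, adjusted p = 7.69e-05). Ikbke, an IRF3 kinase, had a difference of 0.49, SE 0.09, adjusted p = 0.0112, and Irak1, the kinase that MyD88 recruits, fell by the test in shDab2 cells alone (-0.49, SE 0.10, adjusted p = 0.0164). The TRIF gene Ticam1 (-0.16, adjusted p = 0.596), its adaptor gene Ticam2 (-0.12) and the MD-2 gene Ly96 (-0.17, adjusted p = 0.593) did not pass. Of 26 genes of clathrin-mediated endocytosis and TLR4 trafficking, 1 had a difference above 0 and 1 below 0, with a median of 0.12 (-0.01 without normalization). These counts are near the shares over all genes, 2.71% above 0 and 3.08% below 0. The gene above 0 was Itsn1, a scaffold of coated pits that rose in shDab2 and fell in shLuc cells (0.71, SE 0.14, adjusted p = 0.0116). The gene below 0 was Cnpy3, a chaperone of Toll-like receptors (-0.48, SE 0.12, adjusted p = 0.0395). The clathrin heavy chain gene Cltc (0.14) and the dynamin gene Dnm2 (0.19) did not pass.

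**Figure D3:**
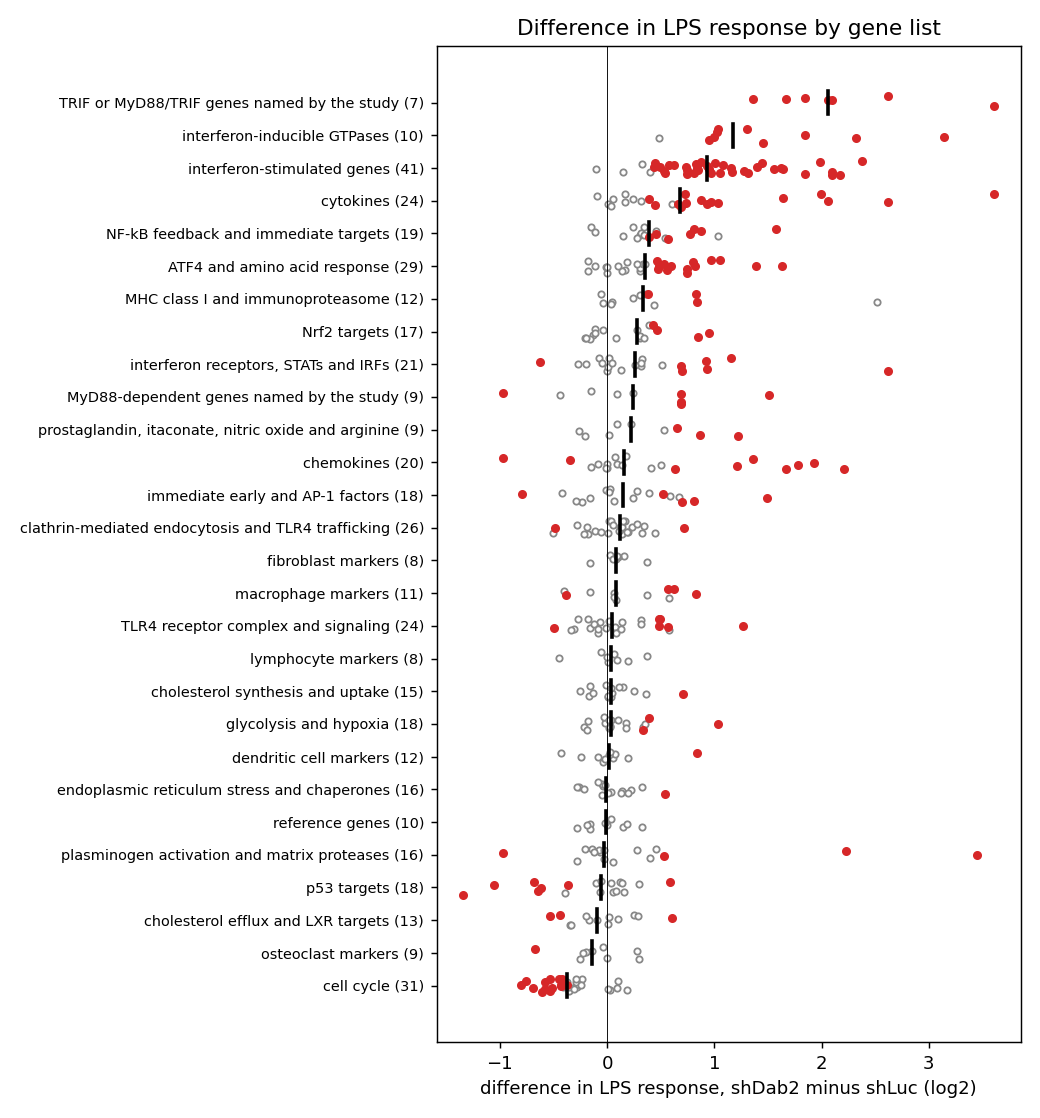
Difference in LPS response (log2, horizontal axis) of the measured members of 28 gene lists, with red points for called genes, open points for the others and a bar at each list's median, and with the number measured in brackets. Genes tied to TRIF, interferon-inducible GTPases and interferon-stimulated genes sit at the top with medians of 2.06, 1.17 and 0.93, and cell cycle genes at the bottom with -0.37.

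Several of the largest differences lay outside these pathways. Serpinb2 (chromosome 1 from 107500892 to 107525600), an inhibitor of urokinase, had intensities of 2619 and 2456 with LPS and 9.13 and 10 with PBS in shDab2 cells, against 172 and 186 with LPS and 7.88 and 7.13 with PBS in shLuc cells. It was near background with PBS in both lines and rose at least 50.7-fold in shDab2 cells and at least 3.57-fold in shLuc cells (3.45, SE 0.11, adjusted p = 1.04e-07). Lcn2, which withholds iron from bacteria by binding their siderophores, had intensities of 1644 and 1665 with LPS and 5.38 and 6.88 with PBS in shDab2 cells, against 127 and 127 with LPS and 10.5 and 2 with PBS in shLuc cells and the same pattern, at least 33.1-fold and at least 2.55-fold higher with LPS in shDab2 and in shLuc cells (3.26, SE 0.13, adjusted p = 2.52e-07). Ccrl2, an atypical receptor that presents chemerin, had intensities of 5382 and 5209 with LPS and 218 and 213 with PBS in shDab2 cells, against 906 and 912 with LPS and 192 and 200.3 with PBS in shLuc cells, alike between the lines with PBS (2.37, SE 0.08, adjusted p = 1.14e-07). Timp1, an inhibitor of matrix metalloproteinases, had intensities of 1848 and 1748 with LPS and 48.4 and 53.3 with PBS in shDab2 cells, against 242 and 236 with LPS and 21.1 and 26.9 with PBS in shLuc cells (2.23, SE 0.11, adjusted p = 1.1e-06).

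Serpinb2 and Timp1 belong to 16 measured genes of plasminogen activation and matrix proteolysis, of which 3 had a difference above 0 and 1 below 0, with a median of -0.03. Plaur, the urokinase receptor, had a larger rise in shDab2 cells (0.53, SE 0.10, adjusted p = 0.0145). Plau, urokinase itself, had intensities of 2489.9 and 2464 with LPS and 3116 and 3212 with PBS in shDab2 cells, against 3774 and 3762 with LPS and 2467 and 2397 with PBS in shLuc cells. It fell with LPS in shDab2 cells and rose in shLuc cells, so that the protease and its inhibitor Serpinb2 had differences of opposite sign (-0.97, SE 0.07, adjusted p = 2.33e-05 for Plau). Of 9 genes of prostaglandin, itaconate, nitric oxide and arginine metabolism, 3 had a difference above 0, with a median of 0.22. Gch1, which makes the cofactor of nitric oxide synthase, started lower in shDab2 cells and reached about the same level, at 3889 and 3482 with LPS and 495 and 488 with PBS in shDab2 cells, against 3378 and 3331 with LPS and 1078 and 1120.4 with PBS in shLuc cells (1.22, SE 0.09, adjusted p = 1.9e-05). Nos2, the inducible nitric oxide synthase, had intensities of 1732 and 1673 with LPS and 31 and 30.1 with PBS in shDab2 cells, against 849 and 840.2 with LPS and 16.1 and 13 with PBS in shLuc cells (0.65, SE 0.10, adjusted p = 0.00306), which no longer passed with 16 added (adjusted p = 0.126). Arg2, a mitochondrial arginase, had a difference of 0.87, SE 0.13, adjusted p = 0.00308, and Acod1 (0.22) did not pass.

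Of 29 measured targets of ATF4 and of amino acid limitation, 14 had a difference above 0 and none below 0, with a median of 0.36. With LPS, 12 of the 29 were lower in shDab2 cells by the test and 2 higher. With PBS, 20 were lower and none higher. Over all 19084 genes, 2222 were lower and 1731 higher with LPS, and 1221 were lower and 1078 higher with PBS. Chac1, which degrades glutathione, had intensities of 3359.8 and 3252 with LPS and 264 and 271 with PBS in shDab2 cells, against 4468 and 4458 with LPS and 1226 and 1324 with PBS in shLuc cells. The shDab2 arrays lay below the shLuc arrays under both treatments, and the gap narrowed with LPS, the rise being 3.40 in shDab2 cells and 1.77 in shLuc cells (1.63, SE 0.08, adjusted p = 1.1e-06). Trib3, a pseudokinase induced by ATF4, had intensities of 970.1 and 913 with LPS and 94.9 and 84.3 with PBS in shDab2 cells, against 1313 and 1406 with LPS and 474 and 466 with PBS in shLuc cells (1.39, SE 0.10, adjusted p = 1.52e-05). Nupr1, a stress-induced chromatin protein, ended at overlapping levels with LPS, with 844 and 1053 with LPS and 217 and 202 with PBS in shDab2 cells, against 1079.9 and 915 with LPS and 488 and 547 with PBS in shLuc cells (1.06, SE 0.15, adjusted p = 0.00221). Mthfd2, an enzyme of mitochondrial folate metabolism, rose by the test in shDab2 cells alone (1719 and 2047 with LPS and 840.4 and 883 with PBS in shDab2 cells, against 1798 and 1677 with LPS and 1679.9 and 1525 with PBS in shLuc cells; 0.97, SE 0.12, adjusted p = 0.000811). Of 16 endoplasmic reticulum stress genes and chaperones, 1 had a difference above 0, Herpud1 (0.54, SE 0.10, adjusted p = 0.00885), and the median was -0.0068.

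The ATF4 element TGATGNAA was found in 3.33% of all promoters, 6.88% of those of genes with a difference above 0, 2.11% of those of genes with a difference below 0 and 8 of 23 of the list. Chac1, Nupr1 and Atf3, chosen after their values were seen, carry the element on the opposite strand, with the same letters in each, shown in capitals.
Chac1: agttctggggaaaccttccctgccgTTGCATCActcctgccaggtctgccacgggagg
Nupr1: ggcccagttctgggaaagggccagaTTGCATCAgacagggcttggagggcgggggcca
Atf3: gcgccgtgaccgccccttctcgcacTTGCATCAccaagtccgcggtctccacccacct
These RefSeq stretches lie at chr2:119351024-119351081 (Chac1, plus strand), chr7:126625548-126625605 (Nupr1, minus strand) and chr1:191183411-191183468 (Atf3, minus strand) of GRCm38.p6.

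Among the largest falls that were enlarged in shDab2 cells, some started alike in both lines and others did not. Kbtbd11, a Kelch protein, had intensities of 232 and 239.9 with LPS and 4143 and 4009 with PBS in shDab2 cells, against 891 and 767 with LPS and 4442 and 3886 with PBS in shLuc cells (-1.59, SE 0.11, adjusted p = 1.78e-05). The lines overlapped with PBS and shDab2 cells fell further. Scel (chromosome 14 from 103513061 to 103613346), a precursor of the cornified envelope of epithelia, had intensities of 75.2 and 82.9 with LPS and 1108 and 1095 with PBS in shDab2 cells, against 65.1 and 55.5 with LPS and 148 and 145 with PBS in shLuc cells. The shDab2 arrays with PBS stood far above all others, and with LPS the line difference did not pass (0.23 with LPS and 2.55 with PBS; difference in response -2.33, SE 0.11, adjusted p = 9.88e-07). Serpinb8, a serine protease inhibitor, had 105 and 93.3 with LPS and 888 and 943 with PBS in shDab2 cells, against 92.4 and 87.1 with LPS and 273 and 274 with PBS in shLuc cells (-1.49, SE 0.11, adjusted p = 1.78e-05). Chst1, a sulfotransferase, had 276 and 242 with LPS and 2171 and 2209.9 with PBS in shDab2 cells, against 312 and 320.3 with LPS and 1014 and 946 with PBS in shLuc cells (-1.37, SE 0.10, adjusted p = 1.78e-05). Both were higher in shDab2 cells with PBS and drew close to shLuc cells with LPS.

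Of 31 measured cell cycle genes, 14 had a difference below 0 and none above 0, with a median of -0.37, and without normalization between arrays 25 did, with a median of -0.53. The count was 9 without shLuc LPS array 2, 10 without either shLuc PBS array and 3 without moderation of the variance. Of the 14, 13 were enlarged falls. With LPS, 26 of the 31 were lower in shDab2 cells by the test and none higher. With PBS, 11 were already lower and none higher. Over all 19084 genes, 2222 were lower with LPS and 1221 with PBS. Rrm2, the regulated subunit of ribonucleotide reductase, had intensities of 929.6 and 893 with LPS and 2717 and 2924 with PBS in shDab2 cells, against 1684 and 1684 with LPS and 2771 and 3058 with PBS in shLuc cells. The arrays with PBS overlapped between the lines and those with LPS did not (-0.81, SE 0.09, adjusted p = 0.000438). Ccne2, a cyclin of S phase entry, had 85 and 120.1 with LPS and 617 and 569 with PBS in shDab2 cells, against 191 and 212 with LPS and 623 and 540.4 with PBS in shLuc cells (-0.76, SE 0.16, adjusted p = 0.0176). Aurka, a mitotic kinase, had a difference of -0.61, SE 0.11, adjusted p = 0.00787. Ccnd1, the cyclin of early G1, had intensities of 8716 and 8949 with LPS and 14593 and 14033 with PBS in shDab2 cells, against 15364 and 14498 with LPS and 15061 and 14949 with PBS in shLuc cells, a fall that passed in shDab2 cells alone (-0.69, SE 0.08, adjusted p = 0.000748). Cdt1 (0.09) and Tk1 (0.19) did not pass.

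Of 18 p53 targets, 6 had a difference below 0 and 1 above 0, with a median of -0.06. With PBS, 9 of the 18 were higher in shDab2 cells by the test and none lower. With LPS, 8 were higher and 2 lower. Over all 19084 genes, 1078 were higher with PBS and 1731 with LPS. Trp53inp1, a p53-induced protein of cell death and autophagy, had intensities of 45.3 and 53.3 with LPS and 279 and 316 with PBS in shDab2 cells, against 38.9 and 48.6 with LPS and 80.6 and 78.1 with PBS in shLuc cells. It was high in shDab2 cells with PBS alone (-1.34, SE 0.14, adjusted p = 0.000294). Phlda3, an inhibitor of Akt, stayed higher in shDab2 cells under both treatments but fell further, at 116 and 120.1 with LPS and 379 and 387 with PBS in shDab2 cells, against 39.9 and 48.6 with LPS and 103 and 100.2 with PBS in shLuc cells (-0.68, SE 0.12, adjusted p = 0.00753). Zmat3, an RNA-binding protein, had a difference of -0.65, SE 0.09, adjusted p = 0.0025. The member above 0 was the death receptor gene Fas (0.58, adjusted p = 0.0186), named after its values were seen, and Cdkn1a, which encodes p21, did not pass (-0.10, adjusted p = 0.615).

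Gained responses had a median absolute difference of 0.56, and 20 of 257 exceeded 1. Il1bos, a transcript annotated opposite Il1b, had intensities of 246 and 211 with LPS and 3.38 and 1 with PBS in shDab2 cells, against 5.5 and 2.38 with LPS and 2.38 and 0 with PBS in shLuc cells. It was above 50 in shDab2 cells with LPS alone, at least 4.55-fold higher than with PBS (2.34, SE 0.14, adjusted p = 7.49e-06), and its value was 3.53 with 16 added and 1.42 with the larger constant. Fam241a had intensities of 1656 and 1542 with LPS and 482 and 579 with PBS in shDab2 cells, against 704 and 681 with LPS and 676 and 722 with PBS in shLuc cells (1.52, SE 0.11, adjusted p = 2.47e-05). Its shLuc arrays overlapped between treatments, while its shDab2 arrays did not. Has1, a hyaluronan synthase, was dim, at 149 and 153 with LPS and 5.38 and 12 with PBS in shDab2 cells, against 42.8 and 23 with LPS and 23.6 and 9.5 with PBS in shLuc cells (1.46, SE 0.20, adjusted p = 0.00166). Among gained falls, Rab15, a GTPase of endosome recycling, had intensities of 149 and 139 with LPS and 458 and 422 with PBS in shDab2 cells, against 642 and 565 with LPS and 582 and 638 with PBS in shLuc cells (-1.32, SE 0.11, adjusted p = 6.47e-05). The shLuc arrays overlapped between treatments and the shDab2 arrays did not. Polk, a DNA polymerase of damage bypass, and Hspa4l, a chaperone, behaved likewise (-1.05, SE 0.09, adjusted p = 8.08e-05 and -0.95, SE 0.11, adjusted p = 0.000427). Gucy2g, a guanylate cyclase, fell in shDab2 cells but stayed above shLuc cells throughout, at 159 and 138 with LPS and 387 and 398 with PBS in shDab2 cells, against 54.8 and 47.4 with LPS and 61.4 and 67.5 with PBS in shLuc cells (-0.98, SE 0.13, adjusted p = 0.00124). Gm364 was under 50 on all arrays (-1.05).

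Rises were blunted for 42 genes, against 329 enlarged ones, and in Bcl6b, Vmp1, Cxcl2 and Egr2 among them shDab2 cells started from a higher level with PBS. Bcl6b, a transcriptional repressor, had intensities of 4618 and 4757 with LPS and 548 and 554 with PBS in shDab2 cells, against 5124 and 4772 with LPS and 219 and 205 with PBS in shLuc cells. The arrays with LPS lay close together, with a line difference that did not pass, and those with PBS stood apart (-1.27, SE 0.08, adjusted p = 1.04e-05). Vmp1, a membrane protein of autophagosome formation, started higher and ended lower in shDab2 cells, at 1527 and 1379.9 with LPS and 366 and 409.8 with PBS in shDab2 cells, against 1903 and 1979 with LPS and 250.1 and 268 with PBS in shLuc cells (-0.91, SE 0.10, adjusted p = 0.000479). Prss16, a thymic serine protease, ended lower in shDab2 cells with LPS, at 324 and 333 with LPS and 149.8 and 132 with PBS in shDab2 cells, against 999 and 989 with LPS and 187 and 217 with PBS in shLuc cells (-1.06, SE 0.11, adjusted p = 0.000276). Vgf, a secretory peptide precursor, also ended lower (-1.05, SE 0.18, adjusted p = 0.00701). Falls were blunted for 13 genes. Tlr13, a receptor for bacterial ribosomal RNA, had intensities of 440.4 and 486 with LPS and 613 and 605 with PBS in shDab2 cells, against 187 and 179 with LPS and 462 and 438 with PBS in shLuc cells, with every shDab2 array with LPS above every shLuc array with LPS (0.74, SE 0.10, adjusted p = 0.0013). Mitf, a transcription factor of osteoclasts and melanocytes, had 1191 and 1376 with LPS and 1477 and 1684 with PBS in shDab2 cells, against 616 and 589 with LPS and 1183 and 1204 with PBS in shLuc cells (0.64, SE 0.11, adjusted p = 0.00753). Zfyve19, Rubcnl and Vash2 were also among the blunted falls but were called in 9, 6 and 7 of 18 alternatives, and since Rubcnl and Vash2 were under 50 in both lines with LPS, the size of their falls rests on the level with PBS.

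The largest difference of all, and the largest lost rise, was in Csnk1a1 (chromosome 18 from 61554236 to 61590320), which encodes casein kinase 1 alpha. Its intensities were 2252 and 2425 with LPS and 2236 and 2169.9 with PBS in shDab2 cells, against 1853 and 1719.6 with LPS and -1 and 4.38 with PBS in shLuc cells. It was at background on both shLuc arrays with PBS and bright on the other 6, at least 35.7-fold higher with LPS in shLuc cells (-5.07, SE 0.10, adjusted p = 1.14e-09). It was the only gene of 19084 with both arrays of a group under 50 and all others at 500 or more, and it rests on 1 probe. Single arrays under 50 beside a replicate array at 500 or more occurred 36 times over the 8 arrays, in none of the called genes. All 26 genes past 1.5 in either direction that were not called had replicate arrays at least 4-fold apart in some group.

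Other lost responses were smaller. Pdgfa, a growth factor for mesenchymal cells, had intensities of 1043 and 1067 with LPS and 1196 and 1199.6 with PBS in shDab2 cells, against 625 and 726 with LPS and 317 and 309.8 with PBS in shLuc cells. Its shDab2 arrays were high under both treatments, and its shLuc arrays rose with LPS without reaching them (-1.17, SE 0.10, adjusted p = 6.18e-05). Clec3b, which binds plasminogen, had 91.1 and 169.6 with LPS and 162 and 149.6 with PBS in shDab2 cells, against 232 and 228 with LPS and 83.8 and 114 with PBS in shLuc cells, with the shDab2 arrays with LPS apart from each other (-1.15, SE 0.24, adjusted p = 0.0199). Foxp3 and Gm6277 were dim (-0.90 and -0.94). Among lost falls, Rasa4, which inactivates Ras, had intensities of 746 and 862 with LPS and 689 and 749.8 with PBS in shDab2 cells, against 294 and 281 with LPS and 596 and 621 with PBS in shLuc cells, a fall that passed in shLuc cells alone (1.11, SE 0.11, adjusted p = 0.000159). H2bc8, a histone gene that was dim, had a difference of 1.13, SE 0.18, adjusted p = 0.00481, which ranged over 0.59 to 1.99 in the alternatives, and Nbn (0.83, adjusted p = 0.0365) and Ankrd61 (0.85, adjusted p = 0.00435) were dim throughout. Fcgr1, the high-affinity IgG receptor, fell in shLuc cells and did not pass in shDab2 cells (126 and 139 with LPS and 113 and 116 with PBS in shDab2 cells, against 71.8 and 88.1 with LPS and 138 and 179 with PBS in shLuc cells; 0.83, SE 0.16, adjusted p = 0.0113).

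A response was reversed for 47 genes, upward in shDab2 cells for 19 and downward for 28. Il20rb, a receptor chain for cytokines of the interleukin 20 family, had intensities of 1435 and 1427 with LPS and 870.4 and 899 with PBS in shDab2 cells, against 574 and 622 with LPS and 866 and 922 with PBS in shLuc cells. The arrays with PBS were alike, and LPS moved the lines apart in both directions (1.21, SE 0.09, adjusted p = 1.89e-05). Trex1, an exonuclease that clears cytosolic DNA, had 1013 and 1143 with LPS and 552 and 576 with PBS in shDab2 cells, against 636 and 633 with LPS and 783 and 792 with PBS in shLuc cells (1.17, SE 0.09, adjusted p = 4.13e-05). Mov10, an antiviral RNA helicase, had 368 and 372 with LPS and 236 and 244 with PBS in shDab2 cells, against 226 and 235 with LPS and 300.4 and 286 with PBS in shLuc cells (0.83, SE 0.09, adjusted p = 0.000528). Both were lower in shDab2 cells with PBS and higher with LPS. Tuba1a, an alpha tubulin, rose in shDab2 and fell in shLuc cells (0.85, SE 0.13, adjusted p = 0.00307). Downward in shDab2 cells, Slc66a2, a membrane protein, had 1489.7 and 1521 with LPS and 1893 and 1863 with PBS in shDab2 cells, against 2829 and 2668 with LPS and 1725 and 1727 with PBS in shLuc cells (-0.97, SE 0.08, adjusted p = 3.57e-05). Dhx34, a helicase of mRNA surveillance, followed with 1535 and 1379 with LPS and 2208 and 2207 with PBS in shDab2 cells, against 2331 and 2312 with LPS and 1720.0 and 1763 with PBS in shLuc cells (-0.99, SE 0.08, adjusted p = 6.47e-05). In both, the shLuc arrays with LPS were the highest of the 4 groups and the shDab2 arrays with LPS the lowest. Arr3 (-1.12) and Cracd (-1.05) were dim in every group, as was Gm5431 (0.81).

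The difference in response was placed by asking under which treatment the lines stood apart. Of the 1104 called genes, 624 differed between the lines with LPS only, 170 with PBS only, 199 under both treatments in the same direction, 98 under both in opposite directions and 13 under neither. The lines were further apart with LPS than with PBS for 856 genes and closer for 248. Of the 517 genes above 0, 65 had crossed, lower in shDab2 cells with PBS and higher with LPS, among them Rsad2, Isg20, Irf7, Tnf and Trex1. Chac1, Trib3 and Gch1 belonged to the 102 genes above 0 that drew closer, and Scel, Serpinb8, Chst1, Bcl6b, Pdgfa and Csnk1a1 to the 146 below 0 that did.

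**Figure D4:**
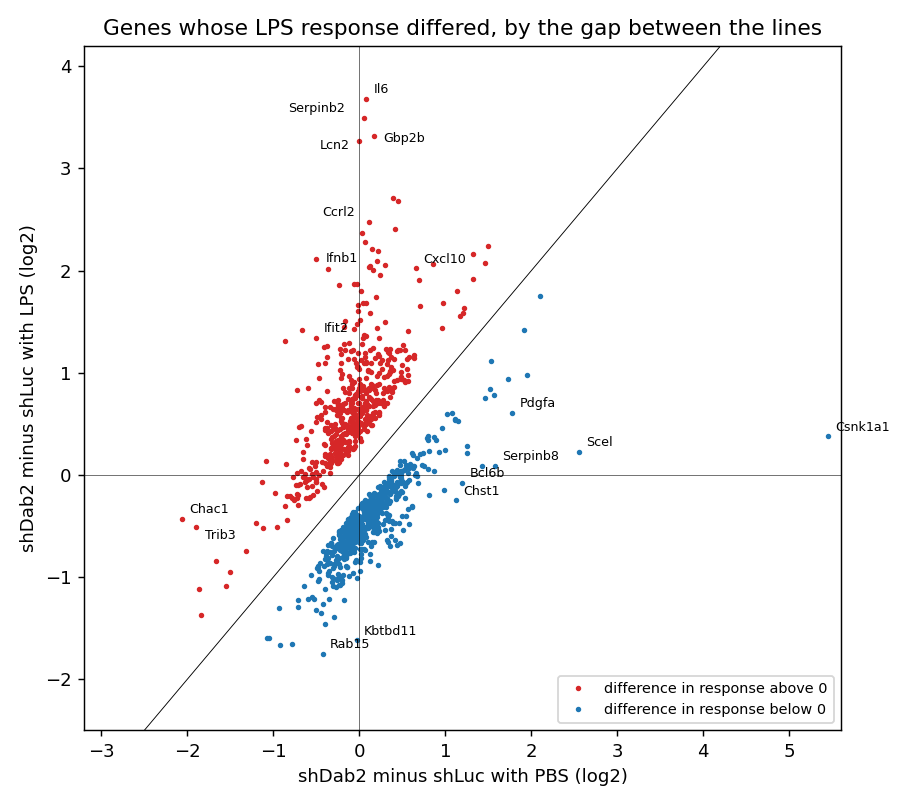
Line difference with LPS (shDab2 minus shLuc, log2, vertical axis) against that with PBS (horizontal axis) for the 1104 genes whose LPS response differed, in red where the difference in response lay above 0 and blue where it lay below, with the line of equal line difference drawn. Il6, Serpinb2, Lcn2 and Gbp2b rise near the vertical axis, Chac1 and Trib3 lie at the left, and Scel, Pdgfa and Csnk1a1 lie at the right.

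The cell line label was set against markers. Of 11 macrophage markers, 3 had a difference above 0 and 1 below 0 (median 0.08), and their summed intensity ranged from 70526 to 76815 in shDab2 cells with LPS, 65422 to 65994 in shDab2 cells with PBS, 56296 to 89462 in shLuc cells with LPS and 69039 to 71498 in shLuc cells with PBS. Cd14, the LPS co-receptor, read 51011 and 19250.2 on the shLuc arrays with LPS. Adgre1, which encodes F4/80, was higher in shDab2 cells under both treatments, at 2718 and 2425 with LPS and 1295 and 1243 with PBS in shDab2 cells, against 609 and 532 with LPS and 445 and 415 with PBS in shLuc cells (0.62, SE 0.11, adjusted p = 0.00763), and Itgam, which encodes CD11b, had a difference of 0.56, SE 0.09, adjusted p = 0.00602. Cd68, a lysosomal marker of macrophages, fell by the test in shDab2 cells alone (-0.38, SE 0.09, adjusted p = 0.0322), but it was called in only 6 of 18 alternatives and was not called when any array other than shDab2 LPS array 1 was left out. Of 12 dendritic cell markers, 1, the integrin gene Itgax, had a difference above 0, with 919 and 902 with LPS and 219 and 253 with PBS in shDab2 cells, against 175 and 155 with LPS and 70.3 and 58.1 with PBS in shLuc cells (0.84, SE 0.13, adjusted p = 0.00304), and 9 were under 50 in all groups. Of 9 osteoclast markers, 1, the transcription factor gene Nfatc1, had a difference below 0 (-0.68, SE 0.11, adjusted p = 0.00582). None of 8 lymphocyte markers, 8 fibroblast markers or 10 reference genes passed, and the summed lymphocyte and fibroblast intensities reached at most 239 and 69.9 on any array. A part of these markers in the differences above was not tested.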

How the data were processed

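RNA of RAW264.7 shDab2 and shLuc cells, given LPS or PBS, was hybridized to Phalanx one-colour arrays. The deposited values are intensities per probe and array, and since some lie below 0, the background appears to have been subtracted. The scanner settings and any normalization are not given in the sources used here. A second table, of group averages, was not used. After quantile normalization of the arrays, log2 was taken of the intensity plus 50. All 8 arrays were fitted with limma 3.58.1 in R 4.3.3, with 1 mean per group, a variance trend and Benjamini-Hochberg adjustment over 26423 probes. A call needed an adjusted p under 0.05. A gene was read by its brightest probe, although 2424 genes had several probes. Of 172 called genes with several probes, another probe was called the same way for 41. Probes of 1 gene were called in opposite directions. Positions and promoters come from RefSeq (GRCm38). The fit was tested on simulated data. With 2 arrays a group, the number of arrays limits the precision.

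Named genes were Dab2, the genes that the study names, the 10 largest calls in each direction, the 5 largest in each class and direction, and up to 4 calls per list. The genes and lists were chosen with earlier results of these data known. Alternatives were other normalizations, added constants of 16 and 128, a filter on dim probes, other variance models, the replicate number as a block, and each array left out.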

Additional observations from a re-analysis of the deposited data

Results flagged for a closer look

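The contrast tested whether the LPS response differed between the lines, and the counts and genes with the largest differences are given again by their size on the log2 scale. Over all probes, with or without a gene symbol, 612 had a difference above 0 and 651 below 0. The 10 largest above 0 were Il6 (3.61), Serpinb2 (3.45), Lcn2 (3.26), Gbp2b (3.14), Ifnb1 (2.62), Mx1 (2.37), Ccrl2 (2.37), Il1bos (2.34), Gbp2 (2.32) and Timp1 (2.23). Of these, Mx1 and Il1bos responded by the test in shDab2 cells alone, and the other 8 rose in both lines. The 10 largest below 0 were Csnk1a1 (-5.07), Scel (-2.33), Kbtbd11 (-1.59), Serpinb8 (-1.49), Chst1 (-1.37), Trp53inp1 (-1.34), Rab15 (-1.32), Bcl6b (-1.27), Pdgfa (-1.17) and Clec3b, which binds plasminogen (-1.15). Of these, Csnk1a1, Pdgfa and Clec3b rose by the test in shLuc cells alone, Bcl6b rose in both lines, Rab15 fell by the test in shDab2 cells alone, and the other 5 fell in both. With 2 arrays a group, no single array could be tested as an outlier.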

How the results depend on the processing

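None of the 1104 called genes changed sign in any alternative that held it (18, or 17 for 27 genes that the filter on dim probes left out), and 209 were called the same way in all 18, or 555 with the unmoderated fit left aside. In most alternatives a sign could not change, or only through renormalization. The variance models, the replicate block and the filter on dim probes left the value of each difference as in the main fit. With an array left out, only renormalization could change a sign, since every array pairing of a called gene gave the same sign. Without normalization between arrays 1968 probes were below 0, 575 genes gained and 1282 enlarged, and the median over all genes was -0.0801. The medians of the lists of TLR4 signaling, endocytosis, cholesterol synthesis, glycolysis and hypoxia, dendritic cell markers and macrophage markers then changed sign. Without moderation of the variance 175 probes were above and 105 below 0, with 32 genes gained, 181 enlarged, 9 blunted, 9 lost and 19 reversed. Blunted genes numbered 88 without dim probes and 32 without a variance trend. Among named genes, Hk2 was called the same way in 6 alternatives, Foxp3 and Nbn in 7, Cnpy3, Gm364 and Gm6277 in 9, Sqstm1 in 10, and Clec3b, Fads1, Fas, Fdft1 and Vegfa in 11.

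With each array left out in turn, probes above 0 ranged over 431 to 534 and those below 0 over 363 to 600, with 179 to 244 genes gained, 411 to 566 enlarged, 27 to 49 blunted, 51 to 91 lost and 26 to 45 reversed. Probes below 0 numbered 432 without shDab2 LPS array 1, 385 and 412 without shDab2 PBS array 1 or 2, 432 without shLuc LPS array 2 and 363 without shLuc PBS array 1. Enlarged (411), lost (51) and reversed (26) genes were fewest without shLuc PBS array 1, and without shDab2 PBS array 1 there were 62 lost and 29 reversed. Blunted genes numbered 28 and 36 without shDab2 LPS array 1 or 2, 29 and 27 without shDab2 PBS array 1 or 2, and 35 without shLuc PBS array 1. The array left without a replicate was assumed to vary like the other groups, and the cause of these changes was not tested.

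Arrays that share a replicate number deviated together only weakly (correlations of -0.0892 to 0.1561), so the main fit did not pair them. Such correlations cannot tell whether arrays of the same number were cultured or handled together, which the sources used here do not say. With the replicate number as a block, 567 probes were above and 603 below 0, and 239 genes were gained, 595 enlarged, 55 blunted, 93 lost and 46 reversed.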

Other observations

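Of 17 measured Nrf2 targets, 4 had a difference above 0 and none below 0, with a median of 0.28, where 2.71% of all genes lay above 0 and 3.08% below 0 by the test. Dim genes lower these shares, since 974 of the 8947 genes with no group under 50 were called, in either direction. Hmox1, which degrades heme, had intensities of 9719.9 and 9534 with LPS and 2725 and 2637 with PBS in shDab2 cells, against 2957 and 3092 with LPS and 1547 and 1711 with PBS in shLuc cells, and it was higher in shDab2 cells under both treatments (0.95, SE 0.09, adjusted p = 8.96e-05). Prdx1, a peroxidase, rose by the test in shDab2 cells alone, at 358 and 358 with LPS and 163 and 163 with PBS in shDab2 cells, against 138 and 118 with LPS and 119.8 and 115 with PBS in shLuc cells (0.85, SE 0.11, adjusted p = 0.00157). Txnrd1 (0.46, adjusted p = 0.0129) and Sqstm1 (0.42, adjusted p = 0.026) were the others, while Nqo1 (-0.13) and Gclc (-0.11) did not pass.

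Of 18 genes of glycolysis and hypoxia, 3 had a difference above 0, with a median of 0.03. They were Adm, a vasodilator peptide that was dim (1.03, adjusted p = 0.00415), Vegfa (0.39, adjusted p = 0.0214) and Hk2, a hexokinase (0.34, adjusted p = 0.0416), and neither Ldha (0.02) nor Slc2a1 (0.10) passed. Of 15 genes of cholesterol synthesis and uptake, Fdft1, which makes squalene, was the only one called (0.71, adjusted p = 0.03), with a fall that passed in shLuc cells alone. Of 13 genes of cholesterol efflux and LXR targets, Abca1 had a larger rise in shDab2 cells (0.60, adjusted p = 0.00859), whereas Abcg1 (-0.44, adjusted p = 0.0193) and the desaturase gene Fads1 (-0.53, adjusted p = 0.0235) had larger falls, so both efflux transporter genes passed, with differences of opposite sign.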
